A study of Mus musculus with 2 samples.

Results

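Cyp11b1 and Cyp11b2 are neighbouring paralogs on mouse chromosome 15 that encode the last enzymes of corticosteroid synthesis. All transcript models assigned to annotated genes of these 2 symbols were taken, whatever their class, which gave 118 models in replicate 1 and 180 in replicate 2, for 2 of the 16745 annotated genes read in either library. The material was adrenal gland tissue of wild-type C57BL/6J mice from The Jackson Laboratory, sequenced as long cDNA reads in 1 group of 2 libraries numbered as biological replicates 1 and 2. No treatment, genotype or time point was varied. One label calls the tissue male, whereas sex is entered as not collected and age as unknown. Each library has its own biosample, but both biosamples point to the same donor entry. Whether their spread is biological or technical therefore cannot be told. All tests on reads below therefore compare these libraries, not conditions, and take reads as independent.

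In the adrenal cortex, Cyp11b1 acts as the 11-beta-hydroxylase that completes corticosterone synthesis, mainly in the zona fasciculata under control of corticotropin. Cyp11b2 is the aldosterone synthase of the zona glomerulosa, the outer zone, where angiotensin II and potassium control it. Both are cytochrome P450 enzymes of the inner mitochondrial membrane that receive electrons from ferredoxin and ferredoxin reductase.

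Cyp11b1 (ENSMUSG00000075604.5) lies at 74834125 to 74841643 and Cyp11b2 (ENSMUSG00000022589.7) at 74851010 to 74856318, both on the minus strand of chromosome 15 (mm10, GENCODE M21). Each has 9 exons and 1 annotated transcript, and 9366 bases without an annotated gene separate them. The coding parts measured 1506 and 1509 bases and were identical at 86.9% of aligned positions. Identity was unevenly spread over the exons. The coding part of exon 1 differed at 2 of 245 bases, exons 2 to 5 together were 78.5% identical, and exons 6 to 8 were 94.0% identical. Exon 5 was the least alike, at 65.2% of aligned positions, and is 3 bases longer in Cyp11b2. Its letters are shown because reads that cross it separate the paralogs most clearly. They are written 5′ to 3′ from the GENCODE transcripts, with capitals at the bases that differ from the other gene, for chr15:74838494-74838645 in Cyp11b1 and chr15:74853039-74853193 in Cyp11b2, minus strand.
Cyp11b1 exon 5: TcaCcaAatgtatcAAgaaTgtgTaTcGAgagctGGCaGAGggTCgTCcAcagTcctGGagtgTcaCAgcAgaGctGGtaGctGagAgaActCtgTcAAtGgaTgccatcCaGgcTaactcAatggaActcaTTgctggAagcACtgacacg
Cyp11b2 exon 5: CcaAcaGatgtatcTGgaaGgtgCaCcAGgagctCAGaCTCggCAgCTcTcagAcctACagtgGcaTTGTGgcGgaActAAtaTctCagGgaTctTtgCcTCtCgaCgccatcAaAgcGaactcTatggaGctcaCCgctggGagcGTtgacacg
The longest identical stretch of coding sequence, 244 bases, runs from exon 1 into exon 2. The shortest Cyp11b1 models had 522 bases in replicate 1 and 666 in replicate 2. For Cyp11b2 the shortest had 286 bases, with 1 read, in replicate 1 and 1605 bases in replicate 2.

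**Figure D1:**
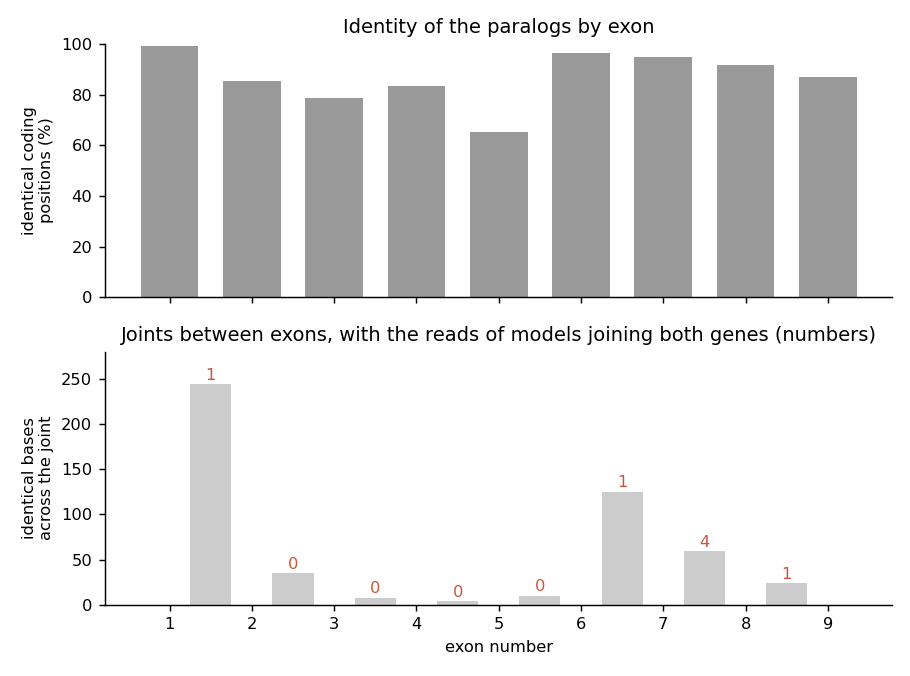
Upper panel: percent of aligned coding positions that are identical between Cyp11b1 and Cyp11b2 in each of the 9 exons, lowest in exon 5 at 65.2%. Lower panel: number of bases identical without a break across each joint of neighbouring exons, with the reads of models that join the genes there, summed over both libraries, printed above each bar; the 4 joints used by such reads have 24 to 244 identical bases.

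Cyp11b1 was among the most read genes of both libraries and Cyp11b2 was abundant in only 1 of them. Cyp11b1 had 5655 of 848782 reads in replicate 1 and 8897 of 545229 reads in replicate 2, which ranked it 9 and 3 among all genes. Scaled to 1000000 reads of the library (CPM), its level was 6662 (exact Poisson 95% interval 6490 to 6838) and 16318 (15981 to 16661), with a mean of 11490 ± 6827 (SD, n = 2). Cyp11b2 had 46 and 844 reads, or 54.2 CPM (39.7 to 72.3) and 1548 CPM (1445 to 1656), with a mean of 801 ± 1056 (SD, n = 2). It ranked 3057 in replicate 1 and 50 in replicate 2. For neither gene did the intervals of the libraries overlap, and they cover counting error only. For Cyp11b2 the SD exceeded the mean.

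**Figure D2:**
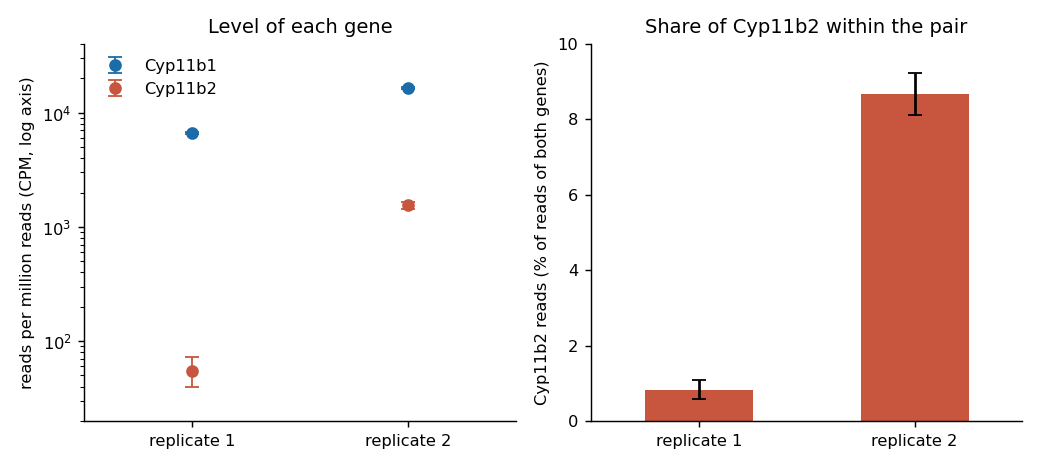
Left: level of Cyp11b1 and Cyp11b2 in each library, in CPM on a log axis, with exact Poisson 95% intervals. Right: reads of Cyp11b2 as a percent of the reads of both genes, with exact Clopper-Pearson 95% intervals, at 0.807% in replicate 1 and 8.66% in replicate 2.

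Reads of each gene were set against the rest of the library with Fisher's exact test, Benjamini-Hochberg adjusted over 9879 genes at a threshold of 0.05, and both members were higher in replicate 2. So were 36.6% of all tested genes, while 27.9% were lower and 64.4% differed in either direction, so a call alone did not set the members apart. Cyp11b1 was 2.45 times higher (log2 ratio 1.29), with a p too small to be held as a number. Cyp11b2 was 28.6 times higher (log2 ratio 4.81, adjusted p = 5.14e-275). Over all tested genes the log2 ratio had a median of 0.38, and scaling with TMM lowered every ratio by 0.44, to 0.86 for Cyp11b1 and 4.38 for Cyp11b2.

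The libraries also differed along transcript length, which bears on the ratios of the members. The running median of the log2 ratio over genes of neighbouring length was 1.46 at the annotated 3165 bases of Cyp11b1. With that median removed, Cyp11b1 was no longer higher in replicate 2: its log2 ratio turned to -0.16, by an exact binomial test with Benjamini-Hochberg adjusted p = 3.08e-10. For Cyp11b2 the value depended on which length was used. Its annotated transcript has 1625 bases and ends 29 bases after the coding part, where the running median was -1.16, and the corrected log2 ratio was 5.97. Its unannotated spliced models had 2709 bases, close to the 2707 bases of those of Cyp11b1, and at that length the running median was 1.46 and the corrected ratio 3.35, an alternative chosen after the data were seen. These model lengths were taken over both libraries together. For Cyp11b2 the models held 8 reads in replicate 1 and 51 in replicate 2, so its length rests mostly on replicate 2. A Cyp11b1 model of 2707 bases ended at 74834587, a position treated with the 3′ ends below. Cyp11b2 was higher in replicate 2 at either length.

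**Figure D3:**
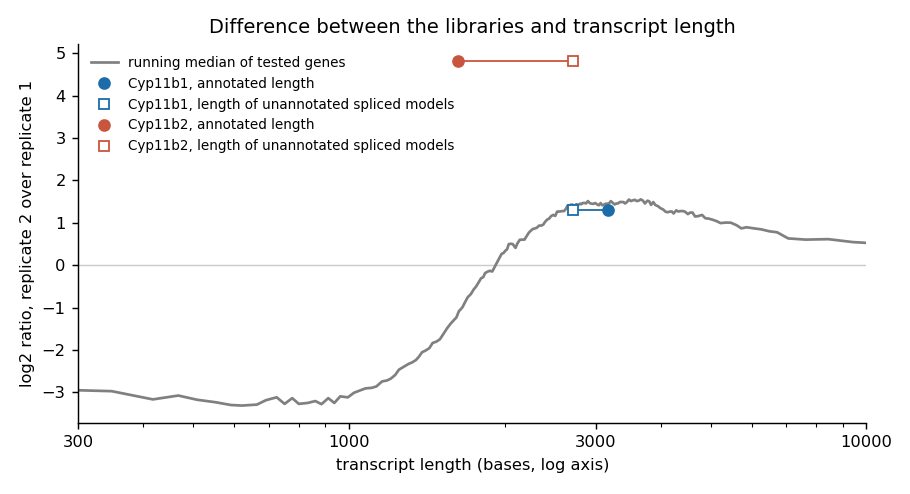
Log2 ratio of replicate 2 over replicate 1 against transcript length in bases on a log axis. The grey line is the running median over tested genes; filled circles place the members at their annotated length and open squares at the length of their unannotated spliced models. Cyp11b1 at 1.29 lies near the line and Cyp11b2 at 4.81 lies above it at both lengths.

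A ratio of the paralogs within a library does not depend on how the libraries are scaled to each other, but it is not free of transcript length. The known models, which hold most reads, are annotated at 3165 and 1625 bases, while the unannotated spliced models of both genes are of like length. Per Cyp11b2 read there were 123 Cyp11b1 reads in replicate 1 and 10.5 in replicate 2. Cyp11b2 made up 0.807% (exact Clopper-Pearson 95% interval 0.591 to 1.07) of the 5701 reads of both genes in replicate 1 and 8.66% (8.11 to 9.24) of the 9741 in replicate 2. The odds ratio was 11.7 (log2 3.54, Fisher's exact test, p = 8.13e-117). In known models alone the shares were 0.561% and 8.36%. Per kilobase of the unannotated spliced models, Cyp11b1 stood at 2461 and 6028 CPM per kb and Cyp11b2 at 20.0 and 571 CPM per kb, so Cyp11b1 was the higher of the paralogs in both libraries on this scale. For Cyp11b2 the length used on this scale came mostly from reads of replicate 2. Per kilobase of annotated length the values were 2105 and 5156 CPM per kb for Cyp11b1 and 33.4 and 953 CPM per kb for Cyp11b2.

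Marker genes of the cortical zones, listed without the paralogs, moved between the libraries, and so did those of other cell types. Counts of markers stand beside 36.6% higher and 27.9% lower among all tested genes. Under TMM scaling 2731 of all 9879 tested genes were higher and 3338 lower. With the length trend removed 1848 of 9166 were higher and 1972 lower. The summed level of 7 zona glomerulosa markers was 475 CPM in replicate 1 and 1388 CPM in replicate 2, and of the 6 tested 4 were higher in replicate 2, 1 lower and 1 not called; with TMM scaling 3 were higher and 1 lower. After correction for length 4 of these 6 were higher and 1 was lower. The angiotensin receptor gene Agtr1a stood at 141 and 835 CPM. The hedgehog ligand gene Shh stood at 3.53 and 82.5 CPM (3 and 45 reads). The Wnt ligand gene Wnt4 stood at 45.9 and 3.67 CPM (39 and 2 reads), so the lower value of each of these ligand genes rests on very few reads. The summed level of 4 zona fasciculata markers was 8026 and 3382 CPM, with 1 higher and 3 lower in replicate 2. Under TMM scaling none was higher and 3 were lower, and after correction for length 1 stood in each direction. Most of the sum was Akr1b7, at 7103 and 2542 CPM. Its log2 ratio of -1.48 reversed to 0.87 with the length trend removed. The summed level of 5 chromaffin cell markers was 10093 and 23122 CPM, with 3 higher and 2 lower. TMM scaling left these counts unchanged, and after correction for length 4 were higher and 1 was lower. All 4 endothelial markers were higher in replicate 2 (229 and 1047 CPM summed), of which 2 were called once length was corrected for. Of 4 macrophage markers 1 was higher and 3 lower (1031 and 282 CPM), and none was called lower once length was corrected for. Of 4 tested markers of capsule and stroma 1 was higher and 1 lower (501 and 249 CPM), and TMM scaling called 2 lower and none higher. Correction for length, possible for 3 of them, called 1 higher and 2 lower. No read was found for the X-zone markers Pik3c2g and Akr1c18, while Thrb of that list had 16 and 12 reads. Of the kidney markers Umod, Kap and Slc34a1 had none and Lrp2 had 1 read, in replicate 1. The part of cell make-up in the paralog ratio was not tested, and in bulk tissue fewer cells of a type and less RNA per cell cannot be told apart.

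The genes that work beside the paralogs did not move as 1 group, and their counts stand beside 36.6% higher and 27.9% lower among all tested genes. Of 6 tested genes for the other steps of steroid synthesis 4 were higher in replicate 2, 1 was lower and 1 was not called, with a median log2 ratio of 0.47 against 0.38 for all tested genes; TMM scaling gave 3 higher and 2 lower calls, and correction for length gave 3 of each. Cyp21a1, the 21-hydroxylase that makes the substrate of both paralogs, stood at 15080.4 and 21791 CPM. Among the electron donors, the reductase gene Fdxr stood at 1269 and 2755 CPM and the ferredoxin gene Fdx1 at 1959 and 603 CPM, so these partners of the same enzymes went in opposite directions on this scale and under TMM scaling. With the length trend removed both were higher in replicate 2, Fdxr by a log2 ratio of 0.97 and Fdx1, reversed, by 1.52. With a median of -1.70, 1 of the 3 tested electron supply genes was higher and 2 were lower, whereas after correction for length 2 were called higher and none lower. Of the mitochondrial P450 list 2 genes were tested and both were higher (median log2 ratio 1.39), but 1 was higher and 1 lower under TMM scaling and with the length trend removed. In the list of glomerulosa control genes 8 of 15 were higher, 5 lower and 2 not called, with a median log2 ratio of 0.82, and 5 were higher and 5 lower under TMM scaling and 7 and 4 with the length trend removed. In the list of fasciculata control genes 4 of 8 were higher and 4 lower (median log2 ratio -0.27), against 3 and 4 under TMM scaling and 3 and 3 with the length trend removed.

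By Euclidean distance in log2(CPM + 1) over the 2 libraries, the genes nearest to Cyp11b1 were the side-chain cleavage enzyme gene Cyp11a1 (distance 0.74), the granin gene Chgb (0.80) and the chaperone gene Hspa8 (1.17). Those nearest to Cyp11b2 were App (0.79), Psap (0.95) and Uba1 (1.01). With 2 libraries this only places genes of like level side by side.

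Most reads of both genes matched the annotated transcript along all 8 introns. Known models, as the authors class them, held 4964 of 5655 Cyp11b1 reads in replicate 1 (87.8%, 95% interval 86.9 to 88.6) and 8045 of 8897 in replicate 2 (90.4%, 89.8 to 91.0). For Cyp11b2 they held 28 of 46 reads (60.9%, 45.4 to 74.9) and 734 of 844 (87.0%, 84.5 to 89.2). The share rose by 2.64 percentage points for Cyp11b1 (adjusted p = 8.15e-06) and by 26.1 points for Cyp11b2 (adjusted p = 0.000179), by Fisher's exact test, Benjamini-Hochberg adjusted over the genes of at least 20 reads in each library. Among all 3092 such genes the share differed in 27.1% and was higher in replicate 2 in 21.2%. Their median difference was 3.89 points, so the rise of Cyp11b1 was smaller than that of the median gene. Against unannotated spliced models only, the Cyp11b1 difference turned to -1.22 points and that of Cyp11b2 was 15.7 points with adjusted p = 0.0628.

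The remaining reads fell into many small models. Cyp11b1 had 105 models in replicate 1 and 150 in replicate 2, of which 59 and 88 had a single read. Cyp11b2 had 13 and 30 models, 8 and 19 of them with a single read. Incomplete splice matches (ISM), which hold a run of the annotated introns, made up 5.73% and 3.09% of Cyp11b1 reads and 21.7% and 6.99% of Cyp11b2 reads. New combinations of known splice sites (NIC) made up 1.45% and 1.83% of Cyp11b1 reads and 10.9% and 3.91% of Cyp11b2 reads. Models with a new splice site (NNC) held 2.30% and 3.25% of Cyp11b1 reads and 6.52% and 2.13% of Cyp11b2 reads. Genomic models, which have no matching splice structure, held 155 and 125 Cyp11b1 reads and none of the 46 and 844 Cyp11b2 reads, for which the upper interval bounds were 7.71% and 0.436%.

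**Figure D4:**
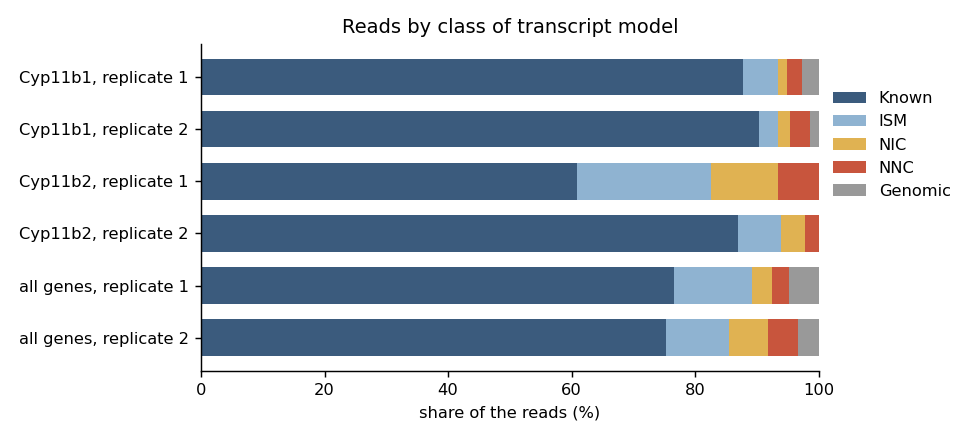
Share of reads in each class of transcript model, in percent of the reads of Cyp11b1, of Cyp11b2 or of all annotated genes, for each library. Known models hold the largest part of every bar, and the Cyp11b2 bar of replicate 1, with 46 reads, has the smallest known part at 60.9%.

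Cyp11b1 models lacking the start of the transcript were the main kind of incomplete match. ISM models of the suffix kind held 280 of 324 ISM reads in replicate 1 (86.4%) and 171 of 275 in replicate 2 (62.2%). Of the ISM models of the prefix kind, those with a retained intron held 26 of 44 reads and 91 of 102 reads. For Cyp11b2 the prefix kind held 7 of 10 and 46 of 59 ISM reads, and in replicate 2 all of the latter had a retained intron.

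Apart from the known model, the most read Cyp11b1 models of replicate 1 were an unspliced genomic model of 83 reads (848 bases), a suffix model of 71 reads holding the last 2 exons, a genomic model of 66 reads (667 bases) and a suffix model of 51 reads holding the last 4. In replicate 2 they were a genomic model of 99 reads (3020 bases), an NNC model of 73 reads with 9 exons, a suffix model of 54 reads with 6 exons and an NNC model of 46 reads with 9 exons. Cyp11b2 had no other model of 10 reads in replicate 1. In replicate 2 it had a model of 43 reads that keeps the last intron and an NIC model of 19 reads with 8 exons.

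The paralogs differed in which exons and introns were left out or kept. Over 15 exon and intron events in each of the 2 libraries, 30 tests in all, Fisher's exact test between Cyp11b1 and Cyp11b2 reads, Benjamini-Hochberg adjusted, called 2 events in replicate 1 and 4 in replicate 2. This comparison was added after the data were seen, and an intron counts as retained where an exon of a model spans it whole.

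Retention of intron 8, the last intron, was more frequent in Cyp11b2 in both libraries. In replicate 1 it was kept in 4 of 38 Cyp11b2 reads that covered it (10.5%, 95% interval 2.94 to 24.8) and 3 of 5388 Cyp11b1 reads (0.0557%), with adjusted p = 7.05e-07 by Fisher's exact test. In replicate 2 it was kept in 47 of 832 Cyp11b2 reads (5.65%, 4.18 to 7.44) and 51 of 8596 Cyp11b1 reads (0.593%, 0.442 to 0.779), with adjusted p = 7.49e-23. The intron has 266 bases in Cyp11b2 and 366 in Cyp11b1.

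Skipping of exon 4 was also more frequent in Cyp11b2. In replicate 1 it was skipped in 2 of 43 Cyp11b2 reads (4.65%, 0.568 to 15.8) and 3 of 5247 Cyp11b1 reads (0.0572%), with adjusted p = 0.00477 by Fisher's exact test. In replicate 2 the reads were 20 of 831 (2.41%, 1.48 to 3.69) and 7 of 8574 (0.0816%, 0.0328 to 0.168), with adjusted p = 4.98e-15. The exon has 204 bases in both genes, which is 68 codons, so its loss keeps the reading frame. Its Cyp11b2 sequence (chr15:74853464-74853667, minus strand) is shown, since its reads lacked it most often, with capitals at the bases that differ from Cyp11b1.
Cyp11b2 exon 4: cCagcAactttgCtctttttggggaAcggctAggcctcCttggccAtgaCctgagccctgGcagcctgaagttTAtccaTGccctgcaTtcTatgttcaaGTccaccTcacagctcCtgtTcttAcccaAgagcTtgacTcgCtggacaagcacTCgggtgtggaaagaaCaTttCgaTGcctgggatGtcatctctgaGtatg
The exon was identical to that of Cyp11b1 at 170 of 204 bases.

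Exon 8 and intron 5 were the other events called, in replicate 2 alone, and whether they differ between the paralogs in replicate 1 could not be seen at its depth. Exon 8 was skipped in 7 of 787 Cyp11b2 reads (0.889%) and 19 of 8455 Cyp11b1 reads (0.225%), with adjusted p = 0.0296 by Fisher's exact test. In replicate 1 the counts were 0 of 34 and 15 of 5300. The upper interval bound in Cyp11b2 was 10.3%, so the share seen in replicate 2 was not excluded there. Intron 5 was kept in 2 of 837 Cyp11b2 reads and none of 8646 Cyp11b1 reads (adjusted p = 0.0389 by Fisher's exact test). Exons 5, 6 and 7 were each skipped alone in at most 1 read of either gene in either library.

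**Figure D5:**
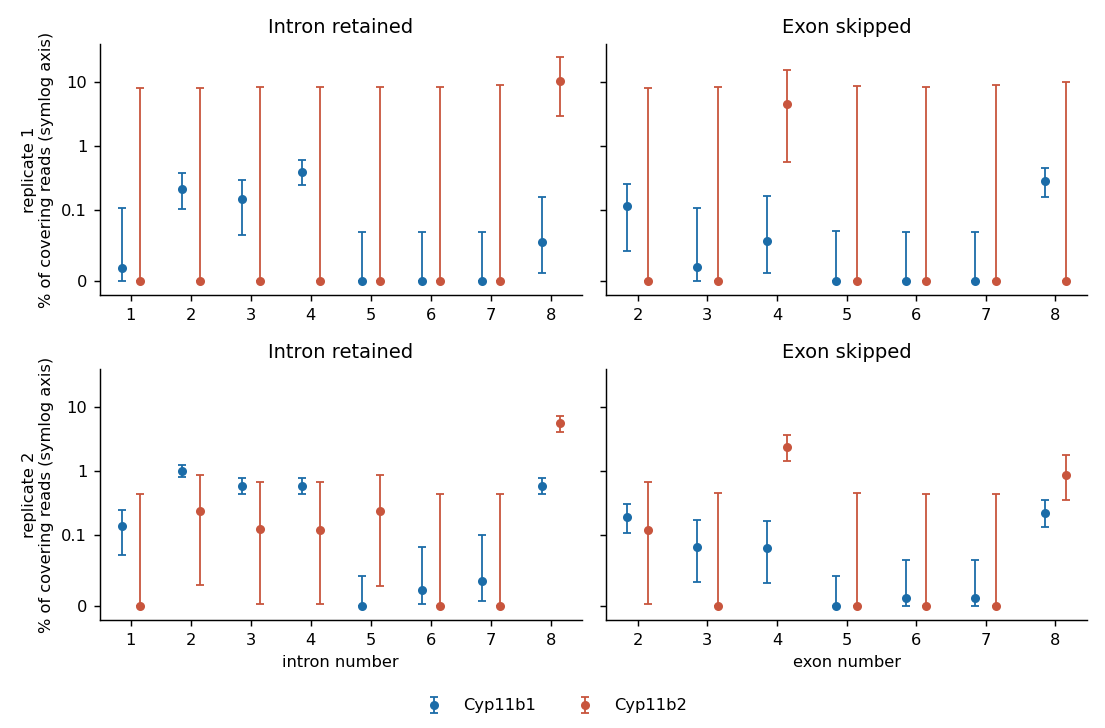
Percent of covering reads in which an intron was retained (left) or an exon skipped (right), by its number, for Cyp11b1 and Cyp11b2 in replicate 1 (top) and replicate 2 (bottom), on an axis that is linear below 0.1% and logarithmic above. Bars are exact Clopper-Pearson 95% intervals; Cyp11b2 lies above Cyp11b1 for intron 8 and exon 4 in both libraries.

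Within Cyp11b1, introns 2, 3 and 8 were kept more often in replicate 2, and the other introns were not called. Comparing the libraries over the same events of both genes, again 30 tests by Fisher's exact test and Benjamini-Hochberg adjusted, called 3 of 15 Cyp11b1 events and 0 of 15 Cyp11b2 events. At an unadjusted p under 0.05 these counts were 4 and 0. In replicate 1 each event was covered by only 34 to 44 Cyp11b2 reads. Differences of the size called in Cyp11b1 could not be seen in Cyp11b2 at that depth. Events of other genes were not compared. Intron 2 of Cyp11b1 was kept in 0.212% of covering reads in replicate 1 and 1.02% in replicate 2 (adjusted p = 1.78e-07, Fisher's exact test). Intron 3 was kept in 0.152% and 0.591%, and intron 8 in 0.0557% and 0.593%. Intron 5, the longest of Cyp11b1 at 1507 bases, was kept whole in no read of either library.

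Instead, some Cyp11b1 models ended inside intron 5. They held 41 reads in replicate 1 (0.725% of the gene) and 72 in replicate 2 (0.809%), of which 40 and 71 shared 1 end position per library, at 74837459 and 74837578. These lie 1035 and 916 bases into the intron. Spliced models that began at the annotated start of exon 1 held 35 and 62 of these reads. No Cyp11b2 model ended in its intron 5, which has 866 bases.

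Unannotated splice sites of Cyp11b1 recurred in both libraries. The most used was an acceptor of intron 8 placed 21 bases upstream, a multiple of 3, with 42 reads in replicate 1 (0.743%, 95% interval 0.536 to 1.00) and 81 in replicate 2 (0.910%, 0.724 to 1.13). An acceptor of intron 5 placed 31 bases upstream had 25 and 40 reads. Donors of intron 2 placed 29 bases downstream and 89 bases upstream had 15 and 28 reads and 24 and 21 reads. Of 16 such sites with at least 10 reads, 1 differed between the libraries by Fisher's exact test, Benjamini-Hochberg adjusted: a donor of intron 7 placed 4 bases downstream, with 10 reads (0.177%) and 55 reads (0.618%), adjusted p = 0.000891.

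Shifts of exactly 4 bases were frequent. Among Cyp11b1 introns with 1 annotated and 1 unannotated site they made up 56 of 230 reads (24.3%) in replicate 1 and 144 of 402 (35.8%) in replicate 2. All donors shifted by 4 bases lengthened the exon and all acceptors so shifted shortened it. For Cyp11b2 there were none in replicate 1, where no such intron was read, and 8 of 18 reads in replicate 2. A shift this small depends on the alignment, whose settings the sources used here do not give.

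Most reads of unannotated Cyp11b1 chains lay in chains found in both libraries. Of the NIC and NNC intron chains of Cyp11b1, 37 were shared, which is 54.4% of the 68 in replicate 1 and 35.9% of the 103 in replicate 2. They held 84.4% and 78.8% of the NIC and NNC reads of the gene. Of the chains with at least 5 reads, 11 of 11 in replicate 1 and 17 of 19 in replicate 2 were also read in the other library. For Cyp11b2, 2 chains were shared, of 6 and 19. Such shares were not taken over all genes, so whether these are unusual for genes of like depth was not tested.

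At the 3′ end, both genes were read to positions other than the annotated ones. Known models carry the annotated ends, so the ends of most reads cannot be seen, and the ends of the other models are shared between reads. Of the 691 Cyp11b1 reads with a visible end in replicate 1, 444 (64.3%) ended at 74834587, 462 bases short of the annotated end. In replicate 2 these were 596 of 852 (70.0%). A second position, 74834871, 746 bases short, held 103 and 53 reads. Both positions coincide with an exon start and an exon end of Gml2, a protein-coding gene on the opposite strand that overlaps the last exon of Cyp11b1 by 747 bases. The sources used here do not say whether strand was used in assigning reads, so reads of this overlap are uncertain.

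For Cyp11b2, 4 of 18 visible ends in replicate 1 (22.2%) and 105 of 110 in replicate 2 (95.5%) lay past the annotated end. For Cyp11b1 these were 88 of 691 (12.7%) and 127 of 852 (14.9%). Of the Cyp11b1 reads, 83 in replicate 1 and 99 in replicate 2 lay in 1 unspliced genomic model per library. Both models begin at 74834587, the Gml2 exon coordinate named above, and hold no intron of Cyp11b1. In replicate 2, 62 of the 110 Cyp11b2 reads with a visible end (56.4%) ended at 74849737, 1273 bases beyond the annotated 74851010, and 43 ended at 74849131, 1879 bases beyond it. Those 43 are the reads of the 1 model that keeps the last intron, so they also count among the reads with intron 8 retained. In replicate 1, 8 of 18 ended at the annotated position and 3 ended at 74849744, 1266 bases beyond it. The last exon of Cyp11b1 holds 1628 bases of annotated 3′ untranslated region and that of Cyp11b2 holds 29.

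A few Cyp11b1 reads used a last exon further downstream. Exon 8 was joined to an acceptor at 74829557, which is 4568 bases past the annotated end of the gene, in 5 reads of each library.

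Some models joined both genes in a single spliced read. Every one of them began at exon 1 of Cyp11b2 and passed into a later exon of Cyp11b1 at the matching place. Cyp11b2 is the upstream gene on their strand, so an intron of a model could not run the other way. The direction was thus fixed by the order of the genes and is not a result. Replicate 1 had 3 such reads among 5701 of both genes (0.0526%, 0.0109 to 0.154) and replicate 2 had 4 among 9741 (0.0411%, 0.0112 to 0.105), a difference that Fisher's exact test did not detect (p = 0.714, the larger of 2 comparisons with Benjamini-Hochberg adjustment). In replicate 1, 2 reads joined exon 7 to exon 8 and 1 joined exon 6 to exon 7. In replicate 2, 2 reads joined exon 7 to exon 8, 1 joined exon 8 to exon 9 and 1, assigned to Cyp11b1, joined exon 1 to exon 2. The introns spanned 15021 to 15552 bases. Those assigned to Cyp11b2 were 3 of its 46 reads in replicate 1 (6.52%) and 3 of its 844 in replicate 2 (0.355%), which differed by Fisher's exact test (adjusted p = 0.00464). As the joining reads were equal in number, this call follows from the different Cyp11b2 totals and not from more joining reads.

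The joint of exon 7 with exon 8 occurred in both libraries, and its letters are shown for 30 bases on each side, with capitals where the paralogs differ.
Cyp11b1 exons 7 and 8: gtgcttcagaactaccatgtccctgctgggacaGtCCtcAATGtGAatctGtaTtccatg
Cyp11b2 exons 7 and 8: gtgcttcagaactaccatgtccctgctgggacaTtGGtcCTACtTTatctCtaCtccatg
Cyp11b2 exon 7 with Cyp11b1 exon 8: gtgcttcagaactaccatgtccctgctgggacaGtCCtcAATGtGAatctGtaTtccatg
The 30 bases before the joint have 0 differences between the genes and the 30 after it have 11, so the joined form has the letters of Cyp11b1 throughout this window. The last 56 bases of exon 7 are identical in both genes, as are the first 3 of exon 8. Across the joints of exons 1 and 2, 6 and 7, and 8 and 9 the identical runs are 244, 125 and 24 bases. At the other joints they range from 4 to 35 bases, and no read joined the genes there. How such reads arose was not tested.

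Introns that join annotated splice sites of 2 different genes were rare in these libraries. They occurred in 129 reads in replicate 1 (0.270% of NIC and NNC reads) and 140 in replicate 2 (0.239%), over 88 and 91 pairs of genes with a median of 1 read per pair. In replicate 1, 3 pairs had more reads than Cyp11b1 with Cyp11b2, and in replicate 2, 5 pairs did.

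Around the paralogs, within 50 kb on either side, 5 other genes are annotated. Ly6k had 16 and 0 reads, 2010109I03Rik 308 and 4 reads and Gml2 9 and 42 reads in replicates 1 and 2. Gml and the antisense gene Gm17189 had none in either library. In CPM, Ly6k stood at 18.9 and 0, 2010109I03Rik at 363 and 7.34 and Gml2 at 10.6 and 77.0. Transcript length was not corrected for in these values. The strand uncertainty named for the overlap with Cyp11b1 also applies to the Gml2 reads.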

How the data were processed

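For each library the authors deposited whole read counts of transcript models and the models' exons, on mm10 with GENCODE M21 per the text deposited with them. The deposited annotation names TALON for unannotated models; the sources used here do not give aligner or platform. Counts were summed per gene and scaled to 1000000 reads (CPM) of the 848782 and 545229 in the libraries; 1 read is 1.18 and 1.83 CPM, and log2 ratios add 1 CPM. With 1 library against 1, edgeR's quasi-likelihood test has no residual degrees of freedom, so genes with at least 10 reads summed were compared by Fisher's exact test (two-sided), and with an exact binomial test under TMM (edgeR 4.0.16), DESeq2 (1.42.0) or length-trend scaling, Benjamini-Hochberg adjusted, threshold 0.05. The tests were tested on simulated data. Exons were read from the deposited models and letters from the GENCODE transcripts, aligned with Biopython 1.88; scipy 1.17.1 served for tests. Named were both genes, their models of at least 10 reads (the 5 most read per gene and library), the 3 nearest genes each, genes of the lists and neighbours; splice sites, ends and models joining the genes were chosen after their values were seen. Promoters and proteins were not used here. The members and lists were chosen with earlier results of these data known.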

Additional observations from a re-analysis of the deposited data

Results flagged for a closer look

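Reads of models that belong to no annotated gene lay within 5 kb past the annotated ends of the paralogs, on the same strand, outside the counts compared above. Past Cyp11b1 there were 119 such reads in replicate 1, in a single-exon model of 98 reads (74831510 to 74833304) and one of 21 reads (74833304 to 74834125) that the authors class as antisense, to Gml2 by position, and no read of this kind in replicate 2. Past Cyp11b2 there were 5 reads in replicate 1 (74849135 to 74850176) and 5 in replicate 2 (74849737 to 74851010), in intergenic models. All of these counts exceed 3 reads, the limit that a count of 0 allows. In replicate 2, 99 reads of a genomic model that runs to 74831568 were counted for Cyp11b1 itself, so what is counted for the gene differed between the libraries. No group of 4 or more samples exists, so single samples were not screened for values far from the rest.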

How the results depend on the processing

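The Cyp11b1 log2 ratio of 1.29 stayed above 0 under TMM, DESeq2, both read minima and both restrictions of model class (0.85 to 1.35), and reversed to -0.16 with the length trend removed by annotated length and, in an alternative added after the data were seen, to -0.16 by model length. The Cyp11b2 ratio ranged from 3.35 to 5.97, always past the threshold. The log2 odds ratio of the paralogs ranged from 3.52 to 4.02, also always past the threshold. Its settings varied the model class only, and the length trend was not removed from it. Genes that differ between the libraries numbered 6363, and 3820 with the length trend removed, 3464 by model length and 3978 with at least 50 reads (fewer genes tested). The share of these genes that were higher in replicate 2 was 56.8%, 45.0% with TMM, 44.8% with DESeq2 and 48.4% with the length trend removed. The difference in known share against unannotated spliced reads only was -1.22 points for Cyp11b1 (adjusted p = 0.0346, Fisher's exact test) and 15.7 for Cyp11b2 (adjusted p = 0.0628); the cause was not tested. Genes whose known share differed numbered 838, and 87 in that comparison, 554 without genomic models and 439 with at least 50 reads in each library. Leaving out a library leaves 1 value, from 6662 to 16318 CPM for Cyp11b1 and from 54.2 to 1548 CPM for Cyp11b2, and no ratio. No paired analysis was possible because there is 1 group. The 46 Cyp11b2 reads of replicate 1 limit every share of that gene there.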
